A study of Mus musculus with 23 samples.

Results

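The foot-shock experiment in Grin2b heterozygous mice was examined by comparing the brain RNA of shocked heterozygotes with that of heterozygotes that received no shock. Its members were the 12 libraries of 23 in the series that the column names and sample labels mark as heterozygous: 6 from shocked animals, called HT shock here, and 6 from unshocked animals, called HT control. The other 11 libraries came from wild-type mice, 5 with shock (WT shock) and 6 without (WT control), and entered only to share the estimate of spread and to set the heterozygous difference beside the wild-type one. The mice were C57BL/6J males. Heterozygotes carried 1 copy of a knock-in allele of Grin2b, the C456Y change of the series title, which is present from conception in all cells and in both heterozygous groups. The sample labels give the age as postnatal day 17, whereas the series text speaks of adult ages, and the intensity, number and timing of the shocks and the interval to tissue collection were not given in the sources used here. As tissue the labels name brain, without a region.

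Grin2b encodes GluN2B, a subunit that pairs with GluN1 to form NMDA-type glutamate receptors, and it is prominent in the forebrain during postnatal development. These receptors open when glutamate is bound and the membrane is depolarised, and the calcium that enters drives synaptic plasticity and a wave of activity-dependent transcription. Foot-shock is an aversive stimulus used in rodents to induce fear learning and stress, and it engages neuronal immediate early genes as well as the corticosteroid response in wild-type animals.

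Libraries were made with a stranded mRNA kit, and the deposited values were normalized counts per gene. Summed over genes they came to 30980153 to 32569746 per library, a range set by the normalization, so the sequencing depth behind each value was unknown. The labels do not say whether replicates were separate animals, so p-values reflect only how much these libraries varied, which can be technical. Brain markers were present in every HT library: the neuronal gene Snap25 ranged over 76484 to 87359 normalized counts, the myelin gene Mbp over 87252 to 108454, the cerebellar granule cell gene Fat2 over 3489.5 to 5323, the striatal dopamine receptor gene Drd1 over 448 to 906, and the choroid plexus gene Ttr over 10338 to 20675. The tissue thus held cerebellar, striatal and choroid plexus transcripts side by side. In bulk tissue, fewer cells of a type and less RNA per cell cannot be told apart.

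HT control replicate 6 stood apart from the other 5 HT control libraries. On the first principal component of the 12 HT libraries, which held 17.5% of the variance, it lay at 26.8, against -28.9 to -0.80 for the other HT control libraries and -8.16 to 16.5 for the HT shock libraries. Every comparison was therefore made with all 12 libraries and again with the 11 left after HT control replicate 6 was taken out, a step chosen with its values known. Differences are given on the log2(normalized count + 1) scale as HT shock minus HT control with their standard error, and a gene was called at an adjusted p under 0.05 (limma, Benjamini-Hochberg over 17118 genes with a mean of at least 10).

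The targeted gene itself, Grin2b (chr6:135713233-136173511, minus strand, GRCm38), had 10405, 9874, 10153, 11248, 11029 and 11518 normalized counts in HT shock replicates 1 to 6, against 14275, 11428, 12729, 13604, 12212 and 9556 in HT control replicates 1 to 6. The HT shock values lay below 4 of the 6 HT control values, and the groups overlapped at HT control replicates 2 and 6. The log2 difference was -0.19 ± 0.079 with 12 libraries (adjusted p = 0.321) and -0.26 ± 0.068 with 11 (adjusted p = 0.0154), where it was called; without HT control replicates 1 or 4 as well it was not. After the length and GC correction described below the 11-library value was -0.12 ± 0.053 (adjusted p = 0.25). Wild-type libraries held 10734, 13111 and 14218 normalized counts (lowest, median and highest) with shock and 12521, 13514 and 15225 without. A gene-level count cannot show a single amino acid change, and the genotype labels are not checked by these values.

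Across all genes, the 12-library comparison called none of 17118 genes (0%), the smallest adjusted p being 0.0665. At an unadjusted p under 0.05 there were 2352 genes. Without HT control replicate 6 the same test called 2065 genes, 768 higher (4.49% of those tested) and 1297 lower (7.58%) in HT shock, and 4740 had an unadjusted p under 0.05. Most of these differences were small: the median absolute log2 difference among called genes was 0.20, and 81 exceeded 1.5-fold. Each of the 2065 genes had the same sign with all 12 libraries, and 1461 of them had an unadjusted p under 0.05 there. Both fits share 11 HT libraries, on which these genes were chosen, so this overlap was largely fixed in advance and is no independent check. Leaving out a further library gave 883 called genes without HT control replicate 4, 969 without HT control replicate 1, and 1259, 1285 and 1341 without HT shock replicates 1, 2 and 3. Every other single omission kept the count between 1537 and 2959. In the following, genes are said to have risen or fallen where they were called with 11 libraries. None of them was called with 12, where the smallest adjusted p of all genes was 0.0665. Heterozygous differences and adjusted p-values of genes given without a number of libraries are those with 11.

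All 6 HT shock values lay above all 6 HT control values for 31 genes (0.181%) and below them for 18 (0.105%). Against the 5 remaining HT control libraries the counts were 340 genes above (1.99%) and 494 below (2.89%). Of the 2065 called genes, 25 were among those that separated all 12 libraries.

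Where each library lay on the called genes was measured by setting the mean of HT control replicates 1 to 5 at 0 and the mean of the 6 HT shock libraries at 1, and taking the median over the 2065 genes. HT shock replicates 1 to 6 stood at 1.20, 1.19, 1.16, 0.99, 0.93 and 0.54, and HT control replicates 1 to 5 at -0.29, 0.066, 0.012, -0.28 and 0.49, values that the choice of genes used. HT control replicate 6, which was not in the fit that called these genes, stood at 1.65, beyond the HT shock mean. It lay nearer to HT shock than to the other HT controls for 1989 genes (96.3%). Because this library was left out for lying apart from its group, its position is no independent check. Among the genes that fell, 950 of 1297 had a value in this library below the whole HT shock range. WT libraries stood between -0.46 and 0.30.

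**Figure D1:**
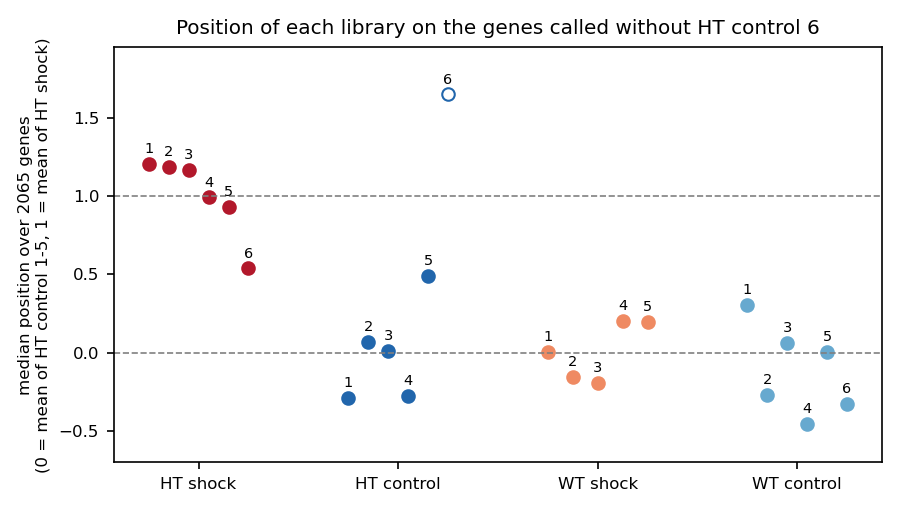
Median position of each library (points, numbered by replicate) over the 2065 genes called with 11 libraries, on a scale with the mean of HT control replicates 1 to 5 at 0 and the mean of HT shock at 1 (dashed lines), for HT shock, HT control, WT shock and WT control. HT control replicate 6 (open circle) lies at 1.65, above each HT shock library, while HT shock replicate 6 (0.54) and HT control replicate 5 (0.49) lie midway.

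The direction of a gene's difference went with the length of its transcript. Genes were split by length into 5 equal bins. Among those with the shortest transcripts (longest annotated transcript of 156 to 1858 bases), 9.13% rose and 0.817% fell. Among those with the longest (from 5107 bases), 1.17% rose and 23.1% fell. The median log2 difference was 0.096 in the shortest bin and -0.10 in the longest with 11 libraries, and 0.068 in the shortest and -0.067 in the longest with 12. GC content gave a like gradient, with 1.43% higher and 16.7% lower in the bin with the lowest GC, against 11.3% higher and 1.05% lower in the bin with the highest.

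The same gradient separated individual libraries. Long transcripts were low relative to the mean of the 12 libraries in 5 of 6 HT shock libraries and high in 4 of the 6 HT controls, and HT control replicate 6 had the steepest gradient in the HT shock direction, with a median deviation of 0.11 in the shortest bin and -0.15 in the longest. After each library was corrected for a smooth trend on length and GC content, 566 genes were called with 11 libraries, 263 higher and 303 lower, of which 454 were among the 2065. With 12 libraries the correction left 2 called genes. For many of the results below the call after this correction (11 libraries throughout) is given as well, and the source of this gradient was not tested.

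**Figure D2:**
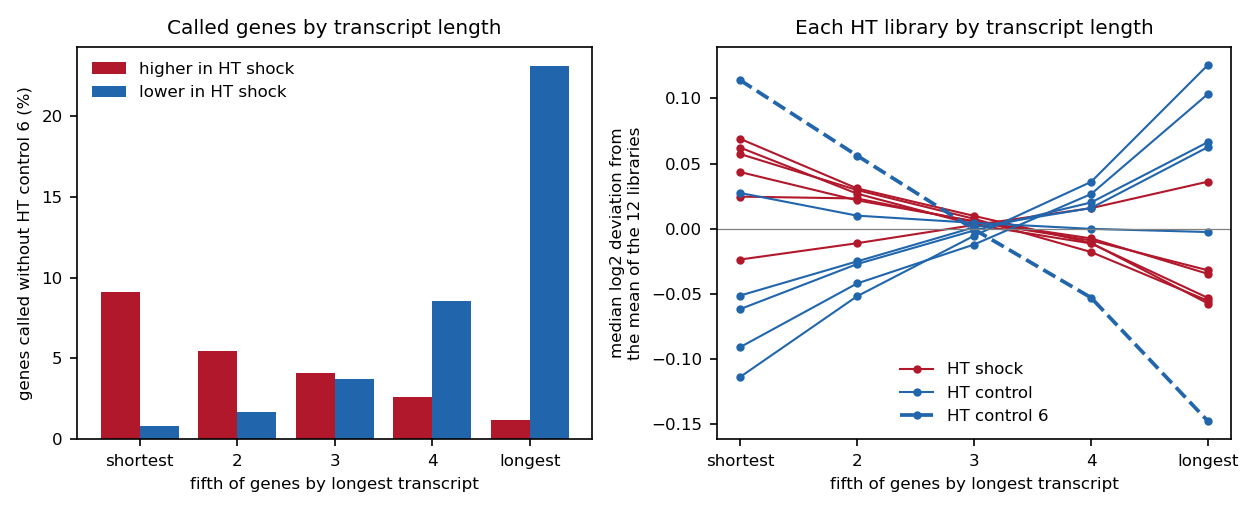
Left, the percentage of genes called higher (red) and lower (blue) in HT shock with 11 libraries, in 5 bins of genes by the length of the longest transcript. Right, the median log2 deviation of each HT library from the mean of the 12 libraries in the same bins (HT shock red, HT control blue, HT control replicate 6 dashed); the called genes go from 9.13% higher among the shortest to 23.1% lower among the longest transcripts.

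Among genes that were higher in HT shock, the smallest p-values with 12 libraries belonged to Prrc2a and Thy1. Prrc2a (chr17:35149076-35164897), which encodes a reader of methylated RNA, had 16511, 16944 and 17477 normalized counts (lowest, median and highest) in HT shock libraries, against 13603, 14689.9 and 15932 in HT control libraries. No value of one group reached the other, and the difference was 0.21 ± 0.037 (adjusted p = 0.0665) with 12 libraries and 0.23 ± 0.035 (adjusted p = 0.00102) with 11. Thy1 (chr9:44043384-44048579), a glycoprotein of the surface of projection neurons, had 17192, 18976 and 19706 normalized counts in HT shock and 14246, 15732 and 17673 in HT control. Its groups overlapped at HT control replicate 6 (17673), and the difference was 0.25 ± 0.046 with 12 libraries (adjusted p = 0.0665) and 0.29 ± 0.042 with 11 (adjusted p = 0.00102).

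The next genes of this group rose by 0.20 to 0.45 on the log2 scale. Setd2, the methyltransferase that places the third methyl group on histone H3 lysine 36, had 2705, 2956 and 3019 normalized counts in HT shock, against 2311, 2496 and 2879.5 in HT control, and rose by 0.20 ± 0.045. Its highest HT control value, in replicate 3, lay within the HT shock range. Ltbp4, which tethers latent TGF-beta to the extracellular matrix, had 2203, 2263 and 2379.6 in HT shock and 1760.1, 1836 and 2121 in HT control, with no overlap over the 12 libraries (0.30 ± 0.059, adjusted p = 0.00398). The long-chain acyl-CoA synthetase gene Acsl5 rose by 0.39 ± 0.075, Gng3, a G protein gamma subunit of neurons, by 0.23 ± 0.04, and the parathymosin gene Ptms by 0.24 ± 0.044. Myadml2 rose by 0.45 ± 0.11, at a far lower level of 180.1, 208 and 268 normalized counts in HT shock, against 131, 165 and 196 in HT control. Corrected for length and GC content, Ptms and Myadml2 missed the threshold (adjusted p = 0.088 for Ptms and 0.0628 for Myadml2) and the other 6 leaders passed it.

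Soga1 had the smallest p-value of all genes with 11 libraries. Soga1 (chr2:157015799-157079254), which encodes a microtubule-associated protein, had 1034, 1108 and 1274 normalized counts in HT shock libraries, against 1096, 1505 and 1792 in HT control libraries. HT control replicates 1 to 5 all exceeded the HT shock libraries, whereas HT control replicate 6 (1096) lay within their range. The difference was -0.40 ± 0.076 with 12 libraries (adjusted p = 0.0759) and -0.49 ± 0.055 with 11 (adjusted p = 5.24e-05), and it was -0.47 ± 0.05 after the length and GC correction. Chd6 (chr2:160946978-161109075), a chromodomain helicase that remodels nucleosomes, had 2688, 2889.6 and 3402 in HT shock and 3288, 3687 and 4008 in HT control. Chd6 fell by 0.35 (SE 0.059, adjusted p = 0.00172), and the corrected value was -0.24 (adjusted p = 0.00732).

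Fat2 and Tbc1d16 were lower without overlap over the 12 libraries. Fat2, a giant cadherin of cerebellar granule cells, had 3489.5, 4147 and 4447 normalized counts in HT shock, against 4469.9, 4954 and 5323 in HT control (-0.33 ± 0.062, adjusted p = 0.0034); corrected for length and GC content the value was -0.24 (adjusted p = 0.0668). Tbc1d16, a GTPase-activating protein for Rab proteins, had 1934, 2067 and 2131 in HT shock and 2185, 2304 and 2359 in HT control (-0.16 ± 0.037). The remaining leaders of this direction were the calcium-dependent phospholipid-binding protein gene Cpne1, which shares exon bases with Rbm12 on the same strand (-0.31 ± 0.056), the transmembrane BMP regulator gene Crim1 (-0.36 ± 0.061), Efcab2 (-0.28 ± 0.059) and Ubap1l (-0.44 ± 0.098). Of the 8 leaders of this direction Fat2 alone was not called after the correction. The calls of these 8 and those of the 8 genes that led in the other direction held in each of the 11 fits that left out 1 further HT library. Because these genes were picked for the smallest p-values in the same libraries, this is no independent check.

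**Figure D3:**
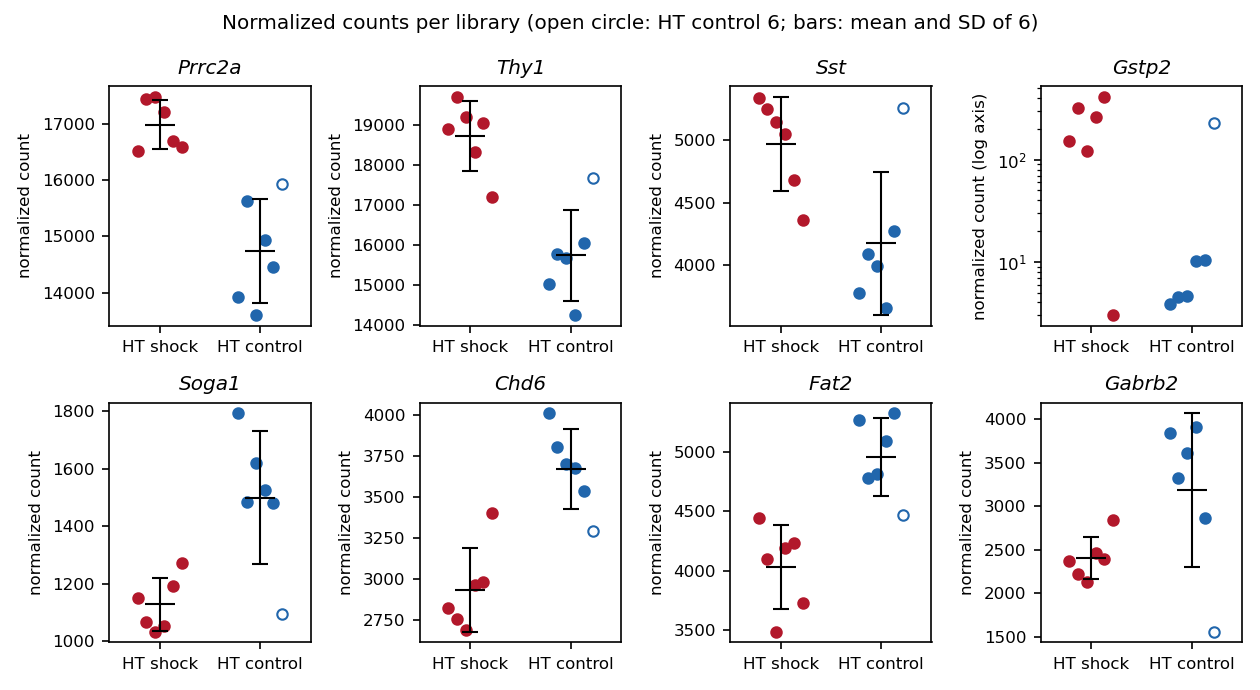
Normalized counts in each HT library of 4 genes that were higher (top) and 4 that were lower (bottom) in HT shock, with HT shock left of HT control, HT control replicate 6 as an open circle, and the mean and SD of the 6 libraries as bars (Gstp2 on a log axis, without bars). Prrc2a and Fat2 separate the groups completely, while for Thy1, Sst, Soga1, Chd6 and Gabrb2 HT control replicate 6 reaches into or past the HT shock values.

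The largest difference among called genes was that of Gstp2, a glutathione S-transferase gene on chromosome 19 (chr19:4040285-4046023). HT shock replicates 1 to 6 held 152, 318, 120.5, 264, 412 and 3 normalized counts, and HT control replicates 1 to 6 held 3.9, 4.5, 4.7, 10.2, 10.4 and 231. HT control replicate 6 thus lay within the range of HT shock replicates 1 to 5, and HT shock replicate 6 below every HT control. The log2 difference of 4.02 ± 1.12 (adjusted p = 0.0261) was lost without HT shock replicates 1, 2 or 4, or HT control replicates 1, 2, 3 or 4 and after the correction (adjusted p = 0.0573), and it was 3.19 ± 1.20 with 12 libraries (adjusted p = 0.302). Wild-type libraries held 6.4, 9.2 and 62.1 with shock and 1.5, 5.4 and 76.7 without. Its near-identical neighbour Gstp1 ranged over 3062 to 3694 normalized counts in the HT libraries, and the authors' counting could have split shared reads between them, so the Gstp2 values are uncertain.

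Bc1, a small neuronal non-coding RNA that represses translation at dendrites, had 8306, 8760.4, 9045, 6734, 6011 and 4077 normalized counts in HT shock replicates 1 to 6 and 3634, 4629, 3239, 3056, 3936 and 8008 in HT control replicates 1 to 6. As with Gstp2, HT shock replicate 6 lay with the HT controls and HT control replicate 6 with the HT shock libraries. Bc1 rose by 0.92 ± 0.21 (adjusted p = 0.0117) with 11 libraries, against 0.73 with 12. Palb2, a partner of the DNA repair protein BRCA2, had 18.7, 48.5 and 76.4 in HT shock and 15.1, 20 and 66.3 in HT control, where the highest value was again replicate 6; its call (1.04 ± 0.34) held only when the library left out besides was HT shock replicate 5 or 6. Amh, the anti-Mullerian hormone gene, rose by 0.57 ± 0.15, with 53.2, 61 and 71 normalized counts in HT shock and 31, 45.3 and 54.6 in HT control. After the correction Bc1 was called (adjusted p = 0.0244), and Palb2 (0.0897) and Amh (0.0967) were not.

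The other large increases were less stable. Gdf1, a TGF-beta family ligand gene that shares exon bases with Cers1 on the same strand, rose by 0.74 ± 0.20 and was not called without HT shock replicate 2, or HT control replicate 3. Ube2t, an E2 ubiquitin-conjugating enzyme gene (0.66 ± 0.21), the microRNA host gene Mir99ahg (0.58 ± 0.17) and the septin gene Sept1 (0.52 ± 0.16) followed, each below 120 normalized counts in every HT library. The call of Ube2t held only when the library left out besides was HT shock replicate 3 or 6 or HT control replicate 2 or 5, that of Sept1 only with HT shock replicate 5 or 6 or HT control replicate 3 or 5, and that of Mir99ahg was lost without HT shock replicates 1 or 2, or HT control replicates 2, 3 or 4. After the correction Mir99ahg was called (adjusted p = 0.038), and Gdf1 (0.082), Ube2t (0.0638) and Sept1 (0.153) were not.

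The genes with the largest decreases with 11 libraries were of several kinds. Oprm1, the mu opioid receptor gene, had 18.9, 32.6 and 43.3 normalized counts in HT shock, against 16.8, 58 and 70.8 in HT control; without replicate 6 (16.8) the groups did not overlap, and Oprm1 fell by 0.95 (SE 0.19, adjusted p = 0.00384). Kcng3, a modifying subunit of voltage-gated potassium channels, had 8.7, 15.8 and 19.5 in HT shock and 5.2, 28.7 and 46.4 in HT control and fell by 1.12 (SE 0.24). Gucy1a2, a subunit of the nitric oxide receptor guanylate cyclase, fell as well (-0.76 ± 0.17), as did the uracil phosphoribosyltransferase homologue Uprt (-0.88 ± 0.15) and the immune adaptor gene Fyb (-0.92 ± 0.23). These 5 calls held without any 1 further HT library and after the correction. The sphingomyelin synthase gene Sgms2 (-0.98 ± 0.27) and the glycine receptor gene Glra1 (-0.96 ± 0.29) fell by less stable margins. Sgms2 was not called without HT shock replicates 1, 2 or 3, or HT control replicates 1, 2 or 4, nor Glra1 without HT shock replicates 1, 2 or 3, or HT control replicates 1, 2, 3 or 4, and neither after the correction (adjusted p = 0.0724 for Sgms2 and 0.0649 for Glra1).

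Interneuron genes were 1 of 42 lists described. Of 20 tested members 6 rose and 2 fell, against 4.49% and 7.58% of all genes, and their median was 0.059 with 12 libraries and 0.086 with 11, beside 0.0030 and 0.0028 for all genes. The members that rose were mainly neuropeptides: Sst, Vip, Npy, Cck and Cort. Pvalb, the calcium buffer of fast-spiking cells, was the sixth, with a call that held only when the library left out besides was HT shock replicate 5 or 6 or HT control replicate 5. Gad2, which makes GABA at terminals, and the cannabinoid receptor gene Cnr1 fell. After the correction Sst and Vip were called, and Npy (adjusted p = 0.385), Cck (0.0687), Cort (0.25), Pvalb (0.279), Gad2 (0.22) and Cnr1 (0.0686) were not. The number of members that rose lay between 3 (without HT control replicate 2) and 8 (without HT control replicate 5) when 1 further HT library was left out. Where several omissions gave the same lowest or highest value, here and below, the library named is the first of them, HT control before HT shock. The counts of each list below are to be read beside the same shares of all genes. Among all genes with the longest transcripts 1.17% rose and 23.1% fell, and among those with the shortest 9.13% rose and 0.817% fell. The median longest transcript lay in the longest bin for the NMDA and kainate receptor, scaffold, adhesion, cortical and CHD remodeller lists. It also did so for the potassium, sodium and calcium channel lists, and further lists in that bin are named below.

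Sst and Vip, picked after their calls were seen, are textbook targets of the cAMP-responsive factor CREB. The stretch of 120 bases before each transcription start is shown, and a part of CREB in their rise was not tested. Sequences are from RefSeq (GRCm38.p6), written 5′ to 3′ on the gene's strand, and capitals mark the motif TGACGTCA, or its first 6 bases TGACGT where the full motif was not found.
Sst promoter (chr16:23890845-23890964, minus strand): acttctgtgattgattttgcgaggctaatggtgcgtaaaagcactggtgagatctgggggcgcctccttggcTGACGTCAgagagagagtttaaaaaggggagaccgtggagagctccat
Vip promoter (chr10:5639098-5639217, plus strand): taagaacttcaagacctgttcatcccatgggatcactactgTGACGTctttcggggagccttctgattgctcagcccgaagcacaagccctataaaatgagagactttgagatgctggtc
The motif began 48 bases before the start in Sst and 79 bases before it in Vip. Searched on both strands in the same window, TGACGTCA was present in 1.24% of 32851 promoters and TGACGT, which it contains, in 4.55%. Neither was found in that window of Cck or Npy, which also rose with 11 libraries, and Cort was not searched.

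Sst, which encodes somatostatin, had 4361, 5100 and 5344 normalized counts in HT shock libraries, against 3652, 4042 and 5259 in HT control libraries. The 6 HT shock values exceeded HT control replicates 1 to 5, and HT control replicate 6 (5259) lay near the top of the HT shock range. Sst rose by 0.33 ± 0.054 with 11 libraries (adjusted p = 0.0016), against 0.26 ± 0.068 with 12 (adjusted p = 0.219), and by 0.19 after the length and GC correction (adjusted p = 0.00806). Vip, the vasoactive intestinal peptide gene, had 563, 684 and 721 in HT shock and 482, 540.5 and 644 in HT control, with HT shock replicate 5 among the HT controls. Vip rose by 0.32 ± 0.067 (adjusted p = 0.0054), and by 0.37 after the correction (adjusted p = 0.00378). Cck, the cholecystokinin gene, had 5522, 6163 and 6493 in HT shock and 4522, 5029.6 and 6377 in HT control and rose by 0.28 ± 0.049, but its corrected value of 0.14 missed the threshold (adjusted p = 0.0687).

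Among glutamate receptors the metabotropic family fell in part. Of its 7 tested members 4 fell and none rose (median -0.14 with 12 libraries and -0.14 with 11); the number that fell lay between 2 (without HT control replicate 3) and 4 (without HT control replicate 2) when 1 further HT library was left out. Grm5, a postsynaptic receptor coupled to phospholipase C (-0.30 ± 0.083), was not called without HT shock replicate 1, or HT control replicates 1 or 4, nor after the correction (adjusted p = 0.116), and Grm3, a presynaptic and astrocytic receptor (-0.21 ± 0.055), was not called without HT control replicate 3. Grm4 fell as well. Grm3 (adjusted p = 0.0331) and Grm4 (0.0452) were also called after the correction.

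The ionotropic families were mixed. Of 7 NMDA receptor subunit genes Grin2b alone was called; the obligatory subunit gene Grin1 had 18583, 20567 and 20947 normalized counts in HT shock and 17924, 19217 and 21095 in HT control (0.095 ± 0.033, adjusted p = 0.0587), and the cerebellar subunit gene Grin2c 3304, 3659.9 and 3906 in HT shock and 3694, 3847 and 4467 in HT control (-0.06 ± 0.048, adjusted p = 0.448). The groups overlapped for both. Of 16 AMPA receptor and auxiliary genes, 4 rose and 2 fell. Gria2, the subunit that keeps AMPA receptors impermeable to calcium, had 12954, 13687 and 15292 in HT shock and 11054, 16103 and 18608 in HT control and fell by 0.27 (SE 0.06); after the correction it was -0.066 (adjusted p = 0.136). The overlap was at HT control replicates 5 and 6. Gria4 fell as well (-0.15 ± 0.039), a call lost without HT control replicate 4. The 4 that rose were the auxiliary subunit genes Cacng3, Cacng7, Cnih2 and Cnih3, of which Cnih2 had 4404, 4618 and 5099 in HT shock and 3770.3, 4072 and 4629 in HT control (0.20 ± 0.047; corrected 0.065, adjusted p = 0.506).

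Of 7 kainate receptor genes 1 rose and 2 fell. Neto2, an auxiliary subunit, fell by 0.31 (SE 0.068; corrected -0.16, adjusted p = 0.0653). Grik2 fell and the high-affinity subunit gene Grik5 rose (0.13 ± 0.035), a call lost without HT control replicate 4. No member of the AMPA, kainate or NMDA lists was called after the length and GC correction, which lowered the number of called genes as a whole.

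Postsynaptic scaffold genes had 1 member that rose and 3 that fell of 15 tested, with medians near 0 (0.0075 with 12 libraries, -0.0021 with 11). Dlgap4, a partner of PSD-95, had 9659, 10221 and 10449 normalized counts in HT shock, against 8745, 9046 and 9737 in HT control, and rose by 0.17 ± 0.036. Dlg2, the PSD-93 gene (-0.21 ± 0.055), and Dlgap2 (-0.22 ± 0.061) fell; the call of Dlg2 was lost without HT control replicates 1 or 4 and that of Dlgap2 without HT shock replicate 1, or HT control replicates 1 or 4. After the correction Dlgap4 (adjusted p = 0.0219) and Dlgap2 (0.034) were called and Dlg2 (0.212) was not. With the third, Dlg1 (not called after the correction, adjusted p = 0.899), the number that fell lay between 0 (without HT control replicate 1) and 4 (without HT shock replicate 6) over the further leave-outs. After the correction 3 scaffold genes were called higher and 1 lower.

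Of 18 genes of postsynaptic calcium signalling, 3 rose and 3 fell. Nrgn, the calmodulin-binding protein neurogranin of forebrain dendrites, had 28345, 30469 and 34030 normalized counts in HT shock libraries and 23289, 25194 and 31655 in HT control libraries. The groups overlapped at HT control replicate 6 (31655), and Nrgn rose by 0.30 ± 0.053 (adjusted p = 0.00246; corrected 0.19, adjusted p = 0.0132). Camk4, the nuclear calcium/calmodulin-dependent kinase gene, had 1205, 1244 and 1334 in HT shock, against 951, 1603 and 1911 in HT control, where replicate 6 was the lowest of the 12 libraries at 951. Camk4 fell by 0.44 (SE 0.094), with a corrected difference of -0.45 (adjusted p = 0.0156).

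Presynaptic genes likewise moved both ways, with 5 higher and 3 lower of 25. Stx1a, a SNARE protein of the plasma membrane, had 5367, 6174 and 6432 normalized counts in HT shock and 4749, 5055 and 6608 in HT control and rose by 0.26 ± 0.051 (corrected adjusted p = 0.0307). Syn1, which tethers vesicles, rose by 0.16 ± 0.032; HT control replicates 1 to 5 spanned 20586 to 20728 while replicate 6 held 22450, and after the correction it was not called (adjusted p = 0.151). Vamp2, Syp and Syngr3 rose as well. Syt2, the fast calcium sensor of inhibitory and hindbrain terminals, had 4911, 5382 and 5827 in HT shock, against 5061, 6934 and 7869 in HT control, with overlap at HT control replicates 5 and 6, and fell by 0.39 (SE 0.062; corrected -0.33, adjusted p = 0.00473). Sv2c and Rims1 were the others that fell. After the correction Syp (adjusted p = 0.00771) and Sv2c (0.0292) were called, and Vamp2 (0.398), Syngr3 (0.355) and Rims1 (0.0694) were not. Synaptic adhesion genes fell in 5 of 14 cases and rose in none, a number that lay between 1 (without HT control replicate 1) and 6 (without HT control replicate 5) over the further leave-outs. Cadm2 fell by 0.24 (SE 0.048) and Nrxn3 by 0.16 (SE 0.05; not called without HT shock replicates 1 or 3, or HT control replicates 1 or 4), but no adhesion gene was called after the length and GC correction, and the list's median then was 0.019, against -0.08 before it.

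GABA-A receptor subunit genes fell in 6 of 13 cases, among them Gabra4, Gabra6, Gabrb1 and Gabrb2. Gabrb2, the beta subunit of most fast inhibitory synapses, had 2134, 2385 and 2837 normalized counts in HT shock libraries, against 1563, 3460.3 and 3908 in HT control libraries. The 5 HT controls left without replicate 6 all exceeded HT shock, while replicate 6 was the lowest of all 12 at 1563. Gabrb2 fell by 0.54 (SE 0.091, adjusted p = 0.00222), against a difference of -0.35 ± 0.16 with 12 libraries (adjusted p = 0.355), with a corrected difference of -0.49 (adjusted p = 0.00359). Gabrb1 fell by 0.26 (SE 0.059) but not after the correction (-0.08 ± 0.028, adjusted p = 0.116), nor were Gabra4 (0.463) and Gabra6 (0.0857) called then. The list's median was -0.12 with 11 libraries and -0.0076 after the correction, where 1 member was called higher and 1 lower. The count of falling members lay between 2 (without HT control replicate 1) and 8 (without HT shock replicate 6) over the further leave-outs.

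Potassium channel genes fell in 9 of 28 cases and rose in 1, Kcnh3 (also called after the correction, adjusted p = 0.0269). Kcna1, a channel of axons and their terminals, had 1715, 1852 and 2003 normalized counts in HT shock, against 1348, 2596 and 2852 in HT control, where replicate 6 held 1348 and the others at least 2055. Kcna1 fell by 0.47 (SE 0.074, adjusted p = 0.00154), with a corrected difference of -0.45 (adjusted p = 0.00206). Its partners Kcna2 (-0.21 ± 0.041) and Kcnab1, a cytoplasmic beta subunit (-0.22 ± 0.036), fell with it; of these Kcnab1 was also called after the correction (adjusted p = 0.0176) and Kcna2 was not (0.106). The potassium channel count lay between 4 (without HT control replicate 1) and 12 (without HT control replicate 5) over the further leave-outs.

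Of 8 sodium channel genes 4 fell and 1 rose. Scn4b, a beta subunit abundant in striatal projection and Purkinje neurons, had 4448, 5389 and 6777 normalized counts in HT shock and 5719.5, 7454 and 8126 in HT control; it fell by 0.44 (SE 0.083, adjusted p = 0.00383), also after the correction (-0.44, adjusted p = 0.00949). Scn2a, a main axonal pore-forming subunit, fell by 0.24 (SE 0.065) unless HT control replicates 1 or 4 was left out, and was not called after the correction (adjusted p = 0.184). Of 15 calcium channel genes 3 rose and 5 fell. The beta subunit genes moved apart: Cacnb3 rose by 0.20 ± 0.042, whereas Cacnb4, at 6271, 6496 and 7064 in HT shock and 4939.7, 7864 and 9034 in HT control, fell by 0.29 (SE 0.056). Cacna1b, the pore of presynaptic N-type channels, fell by 0.20 (SE 0.044). None of these 3 was called after the correction (adjusted p = 0.153 for Cacnb3, 0.0524 for Cacnb4 and 0.121 for Cacna1b).

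The lists with the lowest medians, with 12 and with 11 libraries, were those of striatal projection neurons, midbrain dopamine neurons and the cerebellum. Of 19 striatal genes 11 fell and none rose, and 18 had a negative difference in both fits. Among all 17118 genes 8383 were negative with 12 libraries and 8436 with 11. Their median was -0.24 with 12 libraries, -0.28 with 11 and -0.28 after the length and GC correction, under which 11 were called lower. Pde10a, the phosphodiesterase of medium spiny neurons, had 3216, 4343 and 5324 normalized counts in HT shock libraries, against 3900.4, 6017 and 6866 in HT control libraries. HT control replicates 1 to 5 all lay above HT shock, and Pde10a fell by 0.53 (SE 0.098, adjusted p = 0.00387; corrected -0.43, adjusted p = 0.0161).

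Gnal, the olfactory-type G protein that couples striatal dopamine and adenosine receptors to adenylyl cyclase, fell by 0.21 (SE 0.044). Its groups did not overlap once HT control replicate 6 was set aside. Adora2a, of the indirect pathway, had 429.7, 684, 891, 559.7, 885 and 700.2 normalized counts in HT shock replicates 1 to 6, against 850.5, 871, 904, 1090.4, 979 and 961 in HT control replicates 1 to 6. HT shock replicates 3 and 5 lay among the HT controls and the other 4 below them all; Adora2a fell by 0.48 (SE 0.13), a call lost without HT control replicate 4. Drd2 (-0.36 ± 0.099) lost its call without the same library. After the correction Gnal (adjusted p = 0.0307), Adora2a (0.0204) and Drd2 (0.0161) were called. The call of Drd1, of the direct pathway (-0.32 ± 0.10), held only when the library left out besides was HT shock replicate 3 or 5 or HT control replicate 5, and not after the correction (adjusted p = 0.123). Other striatal transcripts were not called: Ppp1r1b, which encodes DARPP-32, differed by -0.15 ± 0.075 (adjusted p = 0.197, and 0.0486 after the correction, where it passed), the enkephalin gene Penk by -0.14 ± 0.083 (adjusted p = 0.278) and the tachykinin gene Tac1 by -0.11 ± 0.063 (adjusted p = 0.252).

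Mean deviations of the striatal list showed the uneven spread among libraries. They were -0.43, -0.083 and 0.10 (lowest, median and highest) in HT shock libraries, against -0.088, 0.12 and 0.28 in HT control libraries. HT shock replicates 1 and 4 were lowest, HT shock replicates 3 and 5 lay near the HT controls, and HT control replicate 6 (-0.088) within the HT shock range. Over the further leave-outs the count of striatal genes that fell lay between 5 (without HT control replicate 4) and 14 (without HT shock replicate 3). Which parts of the brain were taken was not given in the sources used here.

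**Figure D4:**
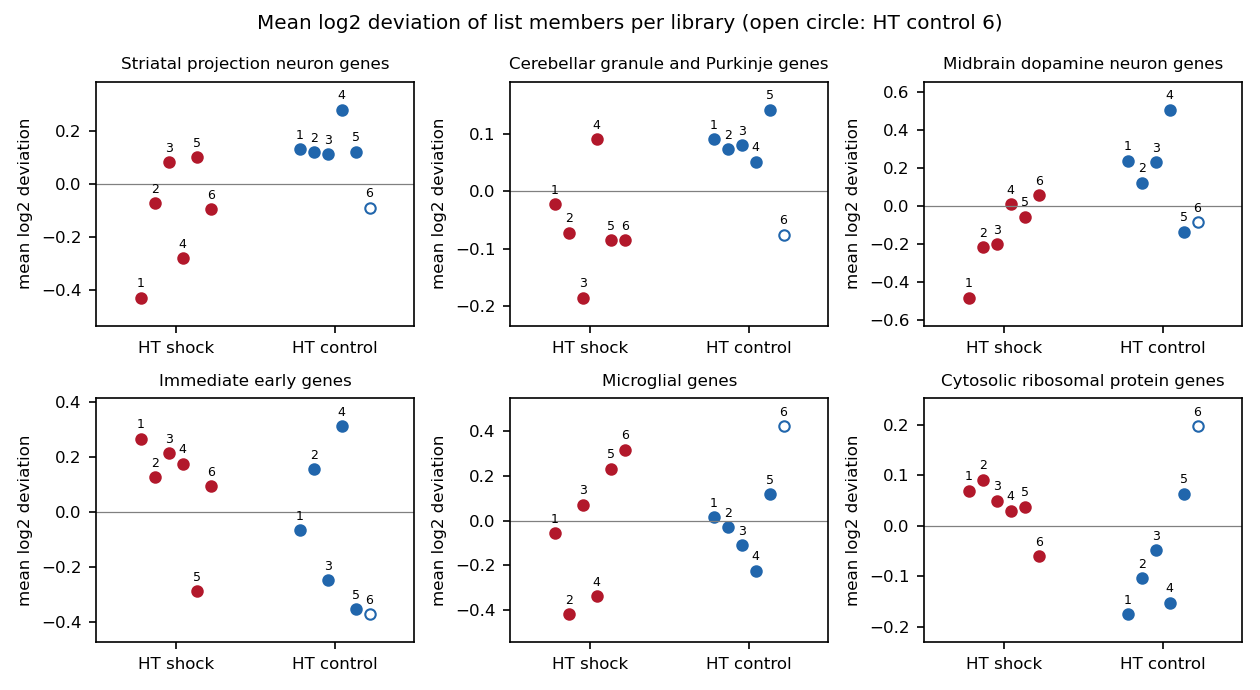
Mean log2 deviation from the mean of the 12 HT libraries over the members of 6 gene lists, for each HT shock (left) and HT control library (right), numbered by replicate, with HT control replicate 6 as an open circle. The striatal list is lowest in HT shock replicates 1 and 4, the immediate early gene list is low in HT shock replicate 5 and in HT control replicates 3, 5 and 6, and HT control replicate 6 has the highest ribosomal protein value.

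Cerebellar genes fell in 9 of 16 cases and rose in none, and Cbln3, Gabra6, Neurod1, Fat2, Car8, Itpr1, En2 and Rgs8 were among those that fell. Rgs8, a Purkinje cell regulator of G protein signalling, fell by 0.18 (SE 0.036), but not after the correction (adjusted p = 0.127). Itpr1 (adjusted p = 0.0107) and En2 (0.0266) were called after it, and Cbln3 (0.0955), Neurod1 (0.116) and Car8 (0.196) were not. The median of the list was -0.15 with 12 libraries and -0.19 with 11, and 0.0029 in the wild-type contrast. Over the further leave-outs the count of falling genes lay between 5 (without HT shock replicate 3) and 9 (without HT shock replicate 4). Wild-type medians had the heterozygous direction for striatal (-0.091), GABA-A receptor (-0.069), sodium channel (-0.074) and thalamic genes (-0.045). They had the other direction for midbrain dopamine (0.14), mature oligodendrocyte (0.093) and astrocyte genes (0.056). No list was tested for a difference between genotypes.

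Midbrain dopamine neuron genes fell in 6 of 11 cases. Slc6a3, the dopamine transporter gene, had 62.7, 77.2, 128, 213, 134 and 279 normalized counts in HT shock replicates 1 to 6, against 333, 251, 436, 577, 137 and 243 in HT control replicates 1 to 6. Values varied widely within each group and overlapped, with HT shock replicate 6 above HT control replicates 2, 5 and 6 and HT shock replicate 4 above HT control replicate 5. The difference of -1.24 ± 0.38 (adjusted p = 0.0422) was called only when the library left out besides was HT shock replicate 4 or 6 or HT control replicate 5, and not after the correction (adjusted p = 0.0773). Chrna6, a nicotinic receptor subunit of dopamine neurons, fell by 0.64 (SE 0.16), a call lost without HT control replicate 4 but present after the correction (adjusted p = 0.0244). The vesicular monoamine transporter gene Slc18a2 (-0.50 ± 0.15) was not called without HT shock replicates 1, 2 or 3, or HT control replicates 1, 3 or 4, nor after the correction (adjusted p = 0.0785). Aldh1a1, an aldehyde dehydrogenase of ventral dopamine neurons, had 2480.5, 2704 and 2904 in HT shock and 2622, 2993 and 3041 in HT control and fell by 0.15 (SE 0.039), also after the correction (adjusted p = 0.017). The count of this list lay between 1 (without HT control replicate 4) and 6 (without HT control replicate 5) over the further leave-outs.

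Thalamic genes fell in 4 of 12 cases. Rora, a nuclear receptor of thalamic and Purkinje neurons, fell by 0.29 (SE 0.061), and the subcortical vesicular glutamate transporter gene Slc17a6 fell by 0.24 (SE 0.062). Neither was called after the correction (adjusted p = 0.0892 for Rora and 0.113 for Slc17a6). The count lay between 2 (without HT control replicate 1) and 5 (without HT shock replicate 5) over the further leave-outs.

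Cortical identity genes moved both ways, with 4 higher and 3 lower of 17 and a positive median (0.094 with 12 libraries, 0.076 with 11). Bcl11a, a zinc-finger factor of cortical projection neurons, had 2667, 2857 and 3193 normalized counts in HT shock and 2408, 2524 and 2794 in HT control and rose by 0.21 ± 0.046 (corrected 0.31, adjusted p = 0.00235). Slc17a7, Neurod6 and Lmo4 rose too; of these Neurod6 was called after the correction (adjusted p = 0.017), and Slc17a7 (0.233) and Lmo4 (0.0851) were not. The deep-layer factors Etv1 (-0.30 ± 0.061) and Foxp2 (-0.28 ± 0.058) fell, and their corrected values missed the threshold (adjusted p = 0.0568 for Etv1 and 0.118 for Foxp2). Of 12 hippocampal genes 2 fell: Zbtb20, which specifies hippocampal identity and is also found in glia, at 2769.8, 3099 and 3464 in HT shock, against 2154, 4008 and 4737 in HT control (-0.43 ± 0.097, adjusted p = 0.00815), and the dentate factor Prox1 (-0.31 ± 0.078, lost without HT control replicate 4). Zbtb20 was also called after the correction (adjusted p = 0.0217), and Prox1 was not (0.115).

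**Figure D5:**
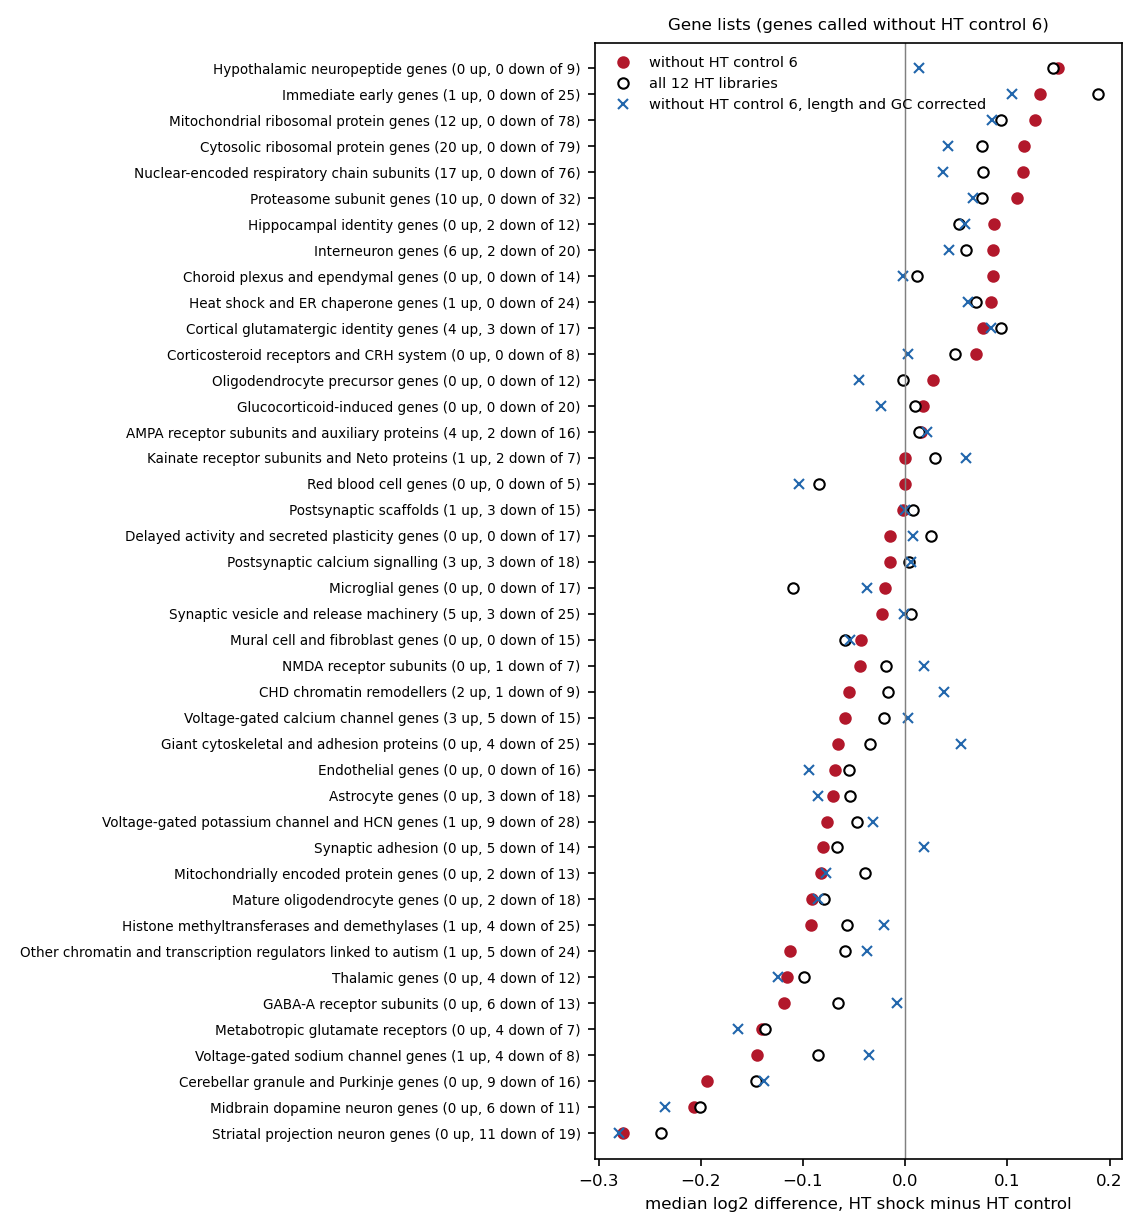
Median log2 difference (HT shock minus HT control) over the tested members of 42 gene lists, with all 12 HT libraries (open circles), with 11 (red), and with 11 after the length and GC correction (crosses); the labels give how many members were called higher (up) and lower (down) with 11 libraries. Striatal and dopamine neuron lists lie lowest with each of the 3, whereas the ion channel and GABA-A receptor lists move towards 0 after the correction.

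Immediate early genes, the first transcripts induced by neuronal activity, were mostly higher but rarely past the test. Of 25 tested, 23 had a positive difference with 12 libraries and 21 with 11 (medians 0.19 and 0.13). Among all 17118 genes 8734 were positive with 12 libraries and 8681 with 11. Members of a list can move together in a library, so their signs are not independent. With 11 libraries 1 member was called (4%, beside 4.49% of all genes that rose). Fos had 1487, 1177, 1307, 1182, 726 and 883 normalized counts in HT shock replicates 1 to 6, against 989, 1189, 716, 1539, 557 and 517 in HT control replicates 1 to 6. The groups overlapped widely, with HT control replicate 4 the highest of the 12 and HT control replicates 3, 5 and 6 the lowest. The difference was 0.37 ± 0.36 (adjusted p = 0.654) with 12 libraries and 0.23 ± 0.37 (adjusted p = 0.752) with 11.

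Arc, whose product acts in endocytosis of AMPA receptors, had 2816, 6964 and 9847 normalized counts in HT shock and 2526, 4838 and 7984 in HT control. The difference was 0.46 ± 0.39 (adjusted p = 0.608) with 12 libraries and 0.28 ± 0.40 (adjusted p = 0.704) with 11. Npas4 had 486, 822 and 1021 in HT shock and 364, 579 and 1283 in HT control (0.29 ± 0.32 with 12 libraries and 0.26 ± 0.35 with 11), and Egr1 9025, 10843 and 11616 in HT shock and 7687, 9165 and 11985 in HT control (0.17 ± 0.16 with 12 libraries and 0.13 ± 0.17 with 11). The member that rose with 11 libraries was Nfil3, a basic leucine zipper repressor, with 316, 367 and 375 in HT shock and 257, 275 and 340.4 in HT control (0.29 ± 0.094, adjusted p = 0.0453), a call that held only when the library left out besides was HT shock replicate 5 or HT control replicate 2 or 5, and not after the correction (adjusted p = 0.243). Gadd45b, which takes part in DNA demethylation (0.26 ± 0.10, adjusted p = 0.0992), and Ier5 (0.22 ± 0.096, adjusted p = 0.143) were not called.

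Libraries of both groups spread widely on the immediate early genes. Mean deviations of the list were -0.29, 0.15 and 0.26 (lowest, median and highest) in HT shock libraries and -0.37, -0.16 and 0.31 in HT control libraries, the lowest HT shock value being that of replicate 5. The median with 11 libraries ranged over 0.038 to 0.24 when 1 further HT library was left out, lowest without HT control replicate 5 and highest without HT control replicate 4. In the wild-type contrast the list's median was -0.08.

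Genes of the corticosteroid response did not pass the test. None of 20 glucocorticoid-induced genes, of 17 delayed activity genes or of 8 corticosteroid receptor and CRH system genes was called with 11 libraries by limma. Fkbp5, a chaperone that glucocorticoids induce, had 1054, 1206 and 1383 normalized counts in HT shock and 961, 1169.5 and 1225 in HT control (0.10 ± 0.096, adjusted p = 0.528), and the kinase gene Sgk1 1677, 2028 and 2975 in HT shock and 1798, 2093 and 3663 in HT control (-0.25 ± 0.27, adjusted p = 0.59). The CRH-binding protein gene Crhbp had 344, 439 and 509 in HT shock and 345, 368 and 429 in HT control (0.21 ± 0.086, adjusted p = 0.112), and the glucocorticoid receptor gene Nr3c1 differed by -0.16 ± 0.067 (adjusted p = 0.106). With n = 6 and 5 libraries and this spread, a missed threshold does not show that these genes were alike in both groups. Leaving out 1 further HT library called at most 1 delayed activity gene higher and 2 lower, and at most 1 and 2 of the CRH system list.

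Among glial and vascular lists, members were called only for astrocytes (16.7%) and mature oligodendrocytes (11.1%), beside 7.58% of all genes that fell. Counts this small do not separate these lists from those without a called member. Astrocyte genes fell in 3 of 18 cases, and 17 had a negative difference in both fits (medians -0.054 and -0.071). Of all 17118 genes 8383 were negative with 12 libraries and 8436 with 11. Slc4a4, a sodium bicarbonate cotransporter, had 4419.5, 4787 and 5461 normalized counts in HT shock, against 4454, 6044 and 6576 in HT control; it fell by 0.32 (SE 0.061), with a corrected difference of -0.20 (adjusted p = 0.0186). The water channel gene Aqp4 (-0.30 ± 0.078) was not called without HT control replicates 1 or 4, and the glutamate transporter gene Slc1a2 (-0.18 ± 0.049) not without HT control replicate 1. Neither was called after the correction (adjusted p = 0.127 for Aqp4 and 0.511 for Slc1a2). The count lay between 1 (without HT control replicate 1) and 6 (without HT shock replicate 6) over the further leave-outs. Of 18 mature oligodendrocyte genes Myrf (-0.18 ± 0.052), the master factor of myelination, and Ermn, a cytoskeletal protein of myelin (-0.24 ± 0.077), fell. Myrf was not called without HT shock replicates 1 or 2, or HT control replicates 1 or 4, but was after the correction (adjusted p = 0.0487); the call of Ermn held only when the library left out besides was HT shock replicate 5 or 6 or HT control replicate 5, and not after the correction (0.198).

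Microglial, endothelial, mural, choroid plexus and red blood cell lists had no called member by limma with 11 libraries, nor when 1 further HT library was left out. The libraries still differed in them. Mean deviations of the microglial list were -0.42, 0.0069 and 0.32 (lowest, median and highest) in HT shock, against -0.22, -0.0066 and 0.42 in HT control, with HT control replicate 6 the highest of the 12 and HT shock replicates 2 and 4 the lowest. C1qa, a complement gene of microglia, had 451, 574 and 700.2 normalized counts in HT shock and 409, 515 and 737 in HT control. The part of microglial content in the neuronal differences was not tested.

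Genes of protein synthesis, respiration and protein breakdown rose in part and did not fall. Of 79 cytosolic ribosomal protein genes 20 rose and none fell, of 76 nuclear-encoded respiratory chain genes 17 rose and none fell, of 78 mitochondrial ribosomal protein genes 12 and none, and of 32 proteasome genes 10 and none. The cytosolic ribosomal list had a median of 0.075 with 12 libraries, 0.12 with 11 and 0.042 after the correction, where 3 members were called higher. The respiratory chain list had a median of 0.076 with 12 libraries, 0.12 with 11 and 0.037 after the correction, where 3 members were called higher. The mitochondrial ribosomal list had a median of 0.093 with 12 libraries, 0.13 with 11 and 0.085 after the correction, where 2 members were called higher. The proteasome list had a median of 0.075 with 12 libraries, 0.11 with 11 and 0.066 after the correction, where 3 members were called higher. The median longest transcript of the cytosolic ribosomal list was 1059 bases, in the shortest bin of genes.

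Single libraries weighed heavily on these counts. The number of cytosolic ribosomal protein genes that rose lay between 2 (without HT control replicate 1) and 52 (without HT control replicate 5), that of respiratory chain genes between 2 (without HT control replicate 4) and 38 (without HT control replicate 5), that of mitochondrial ribosomal genes between 1 (without HT control replicate 4) and 28 (without HT control replicate 5) and that of proteasome genes between 4 (without HT control replicate 1) and 17 (without HT control replicate 5). HT control replicate 6 had the highest mean deviation of the cytosolic ribosomal list (0.20), against -0.06, 0.044 and 0.091 (lowest, median and highest) in HT shock.

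Rpl35, a protein of the large ribosomal subunit, had 2726, 2772 and 3082 normalized counts in HT shock, against 2188, 2326 and 2724 in HT control, without overlap over 12 libraries; it rose by 0.29 ± 0.057, though not after the correction (adjusted p = 0.106). Rpl21 rose by 0.17 ± 0.041, also after the correction (adjusted p = 0.0238); ribosomal protein genes have many processed pseudogenes, between which the authors' counting could split reads. Atp5j, a subunit of ATP synthase, rose by 0.16 ± 0.036, and Ndufa12, of complex I, by 0.22 ± 0.055 (lost without HT control replicate 4). Mrps7 of the mitochondrial small subunit rose by 0.24 ± 0.06, the proteasome gene Psmb5 by 0.17 ± 0.04, Psmd3 by 0.17 ± 0.037 and Psmd7 by 0.15 ± 0.036. After the correction Psmd3 was called (adjusted p = 0.0462), and Atp5j (0.128), Ndufa12 (0.0555), Mrps7 (0.116), Psmb5 (0.541) and Psmd7 (0.0542) were not.

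Of 13 protein genes encoded by mitochondrial DNA 2 fell and none rose. The complex I gene mt-Nd5 had 88304, 92145 and 111582 normalized counts in HT shock and 78103, 105566 and 118667 in HT control (-0.20 ± 0.057), with overlapping groups. Its call held only when the library left out besides was HT shock replicate 5 or 6 or HT control replicate 2 or 5. The cytochrome oxidase gene mt-Co1 (-0.12 ± 0.037) was not called without HT shock replicates 1, 3 or 4, or HT control replicates 1, 3 or 4, and neither was called after the correction (adjusted p = 0.0897 for mt-Nd5 and 0.0718 for mt-Co1). Among 24 chaperone genes 1 rose (4.17%, beside 4.49% of all genes). It was Atf4, the transcription factor of the integrated stress response (0.15 ± 0.037, lost without HT control replicate 1 and after the correction, adjusted p = 0.33). The constitutive chaperone gene Hspa8 differed by 0.15 ± 0.07 (adjusted p = 0.159).

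Chromatin genes differed in both directions. Besides Chd6, Chd3, of the NuRD complex, had 20066, 20409.9 and 20593 normalized counts in HT shock and 18893, 19118 and 20529 in HT control and rose by 0.095 ± 0.023 (corrected 0.13, adjusted p = 0.00814). Chd8, a remodeller linked to autism, rose by 0.19 ± 0.061, a call that held only when the library left out besides was HT shock replicate 2 or 6 or HT control replicate 3 or 5, and after the correction (adjusted p = 0.0314). Of 25 histone methyltransferase and demethylase genes Setd2 rose and 4 fell, among them Kmt2c (-0.24 ± 0.057), which methylates histone H3 lysine 4 at enhancers, and Ash1l (-0.22 ± 0.06, lost without HT control replicates 1 or 4). The median longest transcript of this list was 6755 bases, in the longest bin, where 23.1% of all genes fell. Kmt2c (adjusted p = 0.117) and Ash1l (0.221) were not called after the correction, whereas Setd2 was (0.33, adjusted p = 0.003).

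Of 24 other regulators linked to autism 1 rose, Bcl11a, and 5 fell. Foxp1, a forkhead factor of striatal and cortical neurons, fell by 0.26 (SE 0.072), a call lost without HT shock replicate 1, or HT control replicates 1 or 4 and after the correction (adjusted p = 0.179); another annotated gene shares exon bases with it on the same strand. The number of these regulators that fell lay between 1 (without HT control replicate 1) and 8 (without HT control replicate 5) over the further leave-outs. Their median longest transcript was 7656 bases, in the longest bin, where 23.1% of all genes fell. Of 25 genes of giant cytoskeletal and adhesion proteins 4 fell (16%, beside 23.1% of all genes in the longest bin). Among these was the cadherin gene Fat1 (-0.22 ± 0.054), and none of the list was called lower after the correction, Fat1 included (adjusted p = 0.215). After it 1 member was called higher, and the list's median was 0.055, against -0.066 before it.

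Wild-type libraries, compared in the fit of all 23 libraries, gave no called gene for WT shock against WT control; limma gave 637 genes with an unadjusted p below 0.05 and a lowest adjusted p of 0.998. For the leading genes the wild-type differences were 0.055 ± 0.039 for Prrc2a, -0.017 ± 0.048 for Thy1, -0.034 ± 0.071 for Sst, 0.094 ± 0.063 for Chd6, -0.069 ± 0.17 for Gabrb2 and -0.096 ± 0.12 for Pde10a (WT shock minus WT control, with SE). Whether the heterozygous difference departs from the wild-type one was tested as an interaction of genotype and shock. With all 23 libraries it called no gene (0%), with 1101 passing an unadjusted p of 0.05, and the lowest adjusted p reached 0.552.

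Without HT control replicate 6 the interaction called 1 gene (0.00584%), Soga1, with 2472 at an unadjusted p under 0.05. Soga1 had 1543, 1638 and 1665 normalized counts (lowest, median and highest) in WT shock libraries and 1523, 1617 and 1764 in WT control libraries, a difference of 0.0077 ± 0.055 in this fit, and the heterozygous minus wild-type difference was -0.49 ± 0.078 (adjusted p = 0.0193). The call was lost when HT control replicate 3, HT shock replicate 4, WT shock replicate 1 or 5, or WT control replicate 3 or 5 was also left out, and the count was 109 without HT control replicate 5 and 59 without HT shock replicate 6. For the remaining genes a difference between genotypes was not shown by this test.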

How the data were processed

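RNA of 23 brain libraries was sequenced from a stranded mRNA kit, per the labels. Salmon 1.1.0, R 3.6.2, DESeq2 1.26.0 and GRCm38 are named in the submitters' processing notes. The deposited table holds the authors' normalized counts per gene, a signal with decimals; whole reads could not be recovered (25.4 to 64.2% of low values per library lay within 0.1 of a whole multiple), so depth was unknown and no count model was used. Of its columns 1 matched no sample and was not used. Genes with a mean of at least 10 over the 23 labelled columns (17118) were analysed as log2(value + 1) with limma 3.58.1 (R 4.3.3, trended and robust empirical Bayes, 4 groups in 1 fit, two-sided), Benjamini-Hochberg adjusted over those genes, and the fits were tested on simulated data. Fold changes on this scale understate those of low genes. Transcript lengths, GC content and symbols came from GENCODE vM21 (longest transcript), and the correction subtracted from each library a natural spline on length and GC content.

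The 12 libraries, the 42 gene lists and the omission of HT control replicate 6 were chosen with earlier results of these data known. Genes named in the text were the 8 smallest p-values per direction with 12 libraries and the 8 largest differences per direction among those called with 11. Both kinds had a mean of at least 20 and no predicted or clone name. Up to 3 members of each list with the smallest p with 11 libraries joined them, with Grin2b and 24 genes added whatever their values. Not all of them are reported here. Single members listed as called, and those marking tissue levels, were named after their values were seen. Of the 120 genes with values, 11 share exon bases with another gene on their strand and 46 with a gene on the other strand; whether counting used strand was not given in the sources used here. Alternatives were pseudocounts of 0.5 and 5, other filters, median centring, a fit of the compared groups alone, library weights, a replicate block, the length and GC correction, an adjusted p of 0.1 and leaving out each library. Whether replicate numbers mark paired samples is not given in the labels, and no pairing was used in the main fits. Figures used matplotlib 3.10.9.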

Additional observations from a re-analysis of the deposited data

Results flagged for a closer look

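In each group of 6 libraries, the library lying farthest out was compared with its nearest neighbour by Dixon's ratio, for the 120 genes and 42 gene list means of the report. Of 324 groups, 33 (10.2%) held a library beyond the 95% critical value, where chance gives about 1 in 20. That comparison is no test, because most of these genes were chosen from calls made without HT control replicate 6, a library already known to lie apart, and because the genes and lists are not independent. Most of these libraries were HT control replicate 6 or HT shock replicate 6, and the causes were not tested.

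HT control replicate 6 lay far above its group for Gstp2 (230.6 normalized counts, the next being 10.4), Palb2 (66.35), Bc1 (8008.5), Grin2c (4466.9), Syn1 (22450), Psmb5 (2647.8) and Chd3 (20529.4). The same library lay far below its group for Rgs8 (7774.7), Aldh1a1 (2622), Etv1 (3935.8), Foxp2 (478.9) and Kcnab1 (2811.6). Its mean log2 deviation was lowest in the group for GABA-A receptor subunits (-0.22) and thalamic genes (-0.19) and highest for hypothalamic neuropeptides (0.31).

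HT shock replicate 6 lay far below its group for Ptms (12292.2 normalized counts), Grin1 (18583.3), Grik5 (7269.9) and Psmd3 (4018.5). The same library lay far above its group for Gria2 (15292.4), Dlg2 (11310.5), Camk4 (1334.4), Cadm2 (6833.2), Nr3c1 (3045.5) and Slc1a2 (54541.8). Its mean log2 deviation was 0.057 for postsynaptic scaffolds and 0.039 for other regulators linked to autism, both the highest of the group, and -0.59 for hypothalamic neuropeptides, the lowest.

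HT shock replicate 5 was low for Nfil3 (316.4) and Ier5 (1873.9) and for the mean of the immediate early genes (-0.29). HT shock replicate 4 was high for Sept1 (114.8), and HT shock replicate 2 for Rpl35 (3081.5).

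For Soga1 the heterozygous and wild-type effects of shock differed by -0.49 on the log2 scale without HT control replicate 6, by a test of the interaction (adjusted p = 0.0193, limma).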

How the results depend on the processing

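With 12 HT libraries no gene was called, and the count was 1 when the wild-type libraries stayed out of the fit, 2 after the length and GC correction, 4 at an adjusted p under 0.1, 2792 with library weights (which gave HT control replicate 6 a weight of 0.24), and 0 to 2065 when 1 library was left out. It was 2065 when HT control replicate 6 was omitted, 6 when HT shock replicate 6 was, 4 when WT control replicate 1 was and 1 when HT control replicate 3 was. With 11 HT libraries 2065 genes were called, against 566 after the length and GC correction, 3335 at an adjusted p under 0.1, 3659 with library weights, and 883 to 2959 when 1 further library was left out. The interaction called 0 genes with all libraries, 2 with library weights and 0 to 1 when 1 library was left out. Without HT control replicate 6 it called 1, against 6 after the length and GC correction, 16 at an adjusted p under 0.1, 122 with library weights, and 0 to 109 when 1 further library was left out. The causes were not tested.

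Replicate numbers were shared between the HT groups, but libraries of the same number did not deviate together: their correlations were between -0.11 and 0.19, and 1 of 6 HT shock libraries correlated best with its own number. With the replicate number as a block, 0 genes were called with 12 HT libraries and 2866 with 11, and the interaction called 0 genes with all libraries and 227 without HT control replicate 6. The block used the number in the sample title, which differs from that in the library name for most WT shock libraries. It may therefore have matched these with the wrong libraries of the other groups. Pseudocounts, filters and centring on the median kept the counts of called genes within 1.5 times. Of the 120 genes with values, 66 of the 103 called with 11 libraries were called in all 11 further omissions of an HT library and 47 of the 103 after the length and GC correction, and no direction turned in any of the 3840 values computed. Of 2226 list medians 18 moved by more than the spread between libraries, and 10 of 42 lists had a median of the other sign after the length and GC correction. Many of these gene values and medians could not change, because leaving out wild-type libraries or changing the threshold does not alter a heterozygous difference. Omitting 1 HT library moves a group mean by only part of the spread between libraries, so few medians could be counted as moved. Depth was unknown, so differences of genes with few counts carry a counting error that could not be stated.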
